A study of Mus musculus with 8 samples.

Results

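The amino acid response was examined in islets through 10 genes: Atf4, which encodes the transcription factor of this response, and Ddit3, Trib3, Chac1, Asns, Sesn2, Psat1, Phgdh, Nupr1 and Ppp1r15a, which are known ATF4 targets. They were chosen by symbol, and their probes were found through the RefSeq accessions that the arrays carry. The 10 genes were measured by 13 of 56605 probes and are 10 of 22911 named genes. Islet RNA of 11-week-old mice, from 150 islets per extraction and extracted immediately after isolation, was measured on 8 Agilent one-colour arrays. Control mice carried the floxed Fbln5 allele, and βFbln5KO mice carried it together with Ins1-Cre, a recombinase driven by the insulin 1 promoter of β-cells, with 4 arrays per genotype. The floxed allele was shared by both groups. The controls did not carry Cre, so that an effect of Cre and an effect of the deletion cannot be told apart, and the slide held the genotypes in 1 row of arrays each, so that row and genotype cannot be told apart either. The labels do not say whether each extraction came from a separate mouse, and p-values then describe the spread between these arrays.

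When amino acids run short or unfolded protein accumulates, kinases phosphorylate the initiation factor eIF2, most translation slows, and ATF4 is translated more. ATF4 then binds composite C/EBP-ATF response elements and raises the mRNA of enzymes, transporters and stress factors. β-Cells, which make large amounts of proinsulin, depend on this control of translation. Much of the control of ATF4 acts on its protein, which was not measured here, and its target mRNAs are therefore the usual readout on an array. Slc38a1 and Slc38a2 encode sodium-coupled neutral amino acid transporters, and Slc38a2 is itself known to be induced by amino acid shortage. The question was whether the difference in these transporters between the genotypes went together with a difference in the target genes of the response.

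The letters of the response element were looked up in RefSeq promoter windows of GRCm38.p6, from 250 bases before to 50 bases after each transcription start, since they are what the target genes may share. The motif searched was TGATGNAA on both strands. It was present in the windows of 4 of the 10 genes (40%), of 14 of the 48 genes with a window on a wider list of the response (29.2%) and of 1219 of all 27025 genes (4.51%). The 4 matches are given 5′ to 3′ on the gene's strand with the matching letters in capitals, where TTGCATCA and TTACATCA are the motif read on the opposite strand.
Chac1, chr2:119351038-119351067, gene on the plus strand, first letter 193 bases before the start: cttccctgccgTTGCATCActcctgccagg
Nupr1, chr7:126625562-126625591, gene on the minus strand, first letter 110 bases before the start: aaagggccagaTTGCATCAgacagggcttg
Asns, chr6:7693214-7693243, gene on the minus strand, first letter 23 bases before the start: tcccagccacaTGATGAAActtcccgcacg
Trib3, chr2:152344028-152344057, gene on the minus strand, first letter at base 15 after the start: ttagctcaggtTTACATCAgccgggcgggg
Chac1 and Nupr1 hold the same 8 letters. The windows of Atf4, Ddit3, Sesn2, Psat1, Phgdh and Ppp1r15a, and that of Slc38a2, do not hold these letters. Slc38a1 had no window to search. A match is a description of the letters and not a measured binding site.

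For none of the 10 genes did the difference between the genotypes pass the test. Values are log2 signals relative to the 75th percentile of all probes on the same array, and 1 brightest probe stands for a gene. On all 8 arrays the 10 brightest probes were well above background, and the control and βFbln5KO arrays overlapped for each of them. With limma, 0 of the 10 genes passed an adjusted p of 0.05, against 3 of all 22911 genes (0.0131%), and 0 passed an unadjusted p of 0.05 in either direction. Among all genes, 16.8% were higher and 2.68% were lower in βFbln5KO islets at that unadjusted p. The excess of higher genes lies in dim probes and turned with the processing, with 170 higher and 878 lower genes under normexp background correction in place of 3845 and 615. Among the 13552 genes as well measured as these 10, in other words clearly above background on each of the 8 arrays, 0.981% were higher and 3.04% were lower, and the groups did not overlap with βFbln5KO below for 2.03% and with βFbln5KO above for 0.686%. Of the 10 log2 fold changes, 2 were above 0 and 8 were below 0, beside 6294 above and 7258 below among the 13552 genes. The median of the 10 was −0.16, beside a median of −0.0082 over the 13552 genes. Without control array 1 the median of the 10 was −0.076, and without control array 3 it was −0.088.

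**Figure D1:**
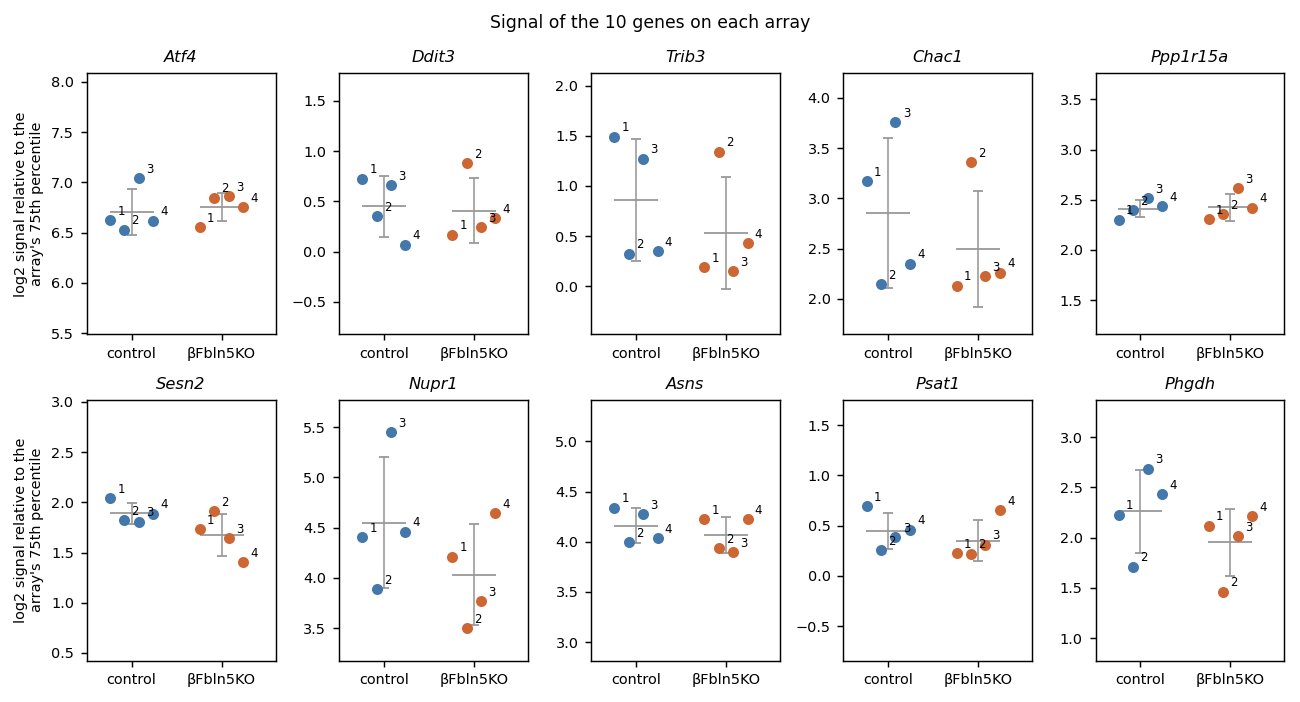
Log2 signal relative to the array's 75th percentile (y axis) for the 10 genes in control (blue) and βFbln5KO islets (orange), 1 point per array with its replicate number, and the mean with SD in grey (n = 4 per group). Every panel spans the same number of log2 units, and the groups overlap in each, with the widest spread in Trib3, Chac1 and Nupr1.

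No difference in Atf4 mRNA was seen beyond the spread of the arrays. Its log2 signal on control arrays 1 to 4 was 6.63, 6.53, 7.05 and 6.62, and on βFbln5KO arrays 1 to 4 it was 6.55, 6.85, 6.86 and 6.75. The highest array was control 3 and the lowest was control 2, so that both extremes were controls. The means were 6.70 ± 0.23 and 6.75 ± 0.14 (SD, n = 4 each), which gave a log2 fold change of 0.050 ± 0.13 (SE) and a 95% confidence interval from −0.24 to 0.34 (limma, adjusted p = 0.878). The value was −0.0087 without control array 2, 0.16 without control array 3 and 0.18 with quantile normalization. Another Atf4 probe gave a log2 fold change of 0.065 (limma, adjusted p = 0.767), with 1.83 to 2.20 on the control arrays and 1.99 to 2.25 on the βFbln5KO arrays.

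The 3 stress targets Ddit3, Trib3 and Chac1 did not pass the test and were high on the same arrays of both genotypes. Ddit3 encodes CHOP, the transcription factor linked to cell death under prolonged stress. Its log2 signal was 0.73, 0.35, 0.66 and 0.07 on control arrays 1 to 4 and 0.17, 0.88, 0.24 and 0.33 on βFbln5KO arrays 1 to 4. The log2 fold change was −0.047 ± 0.19 (SE; limma, adjusted p = 0.926), and its sign turned when any of 4 arrays was left out, with 0.044 as the highest value. Trib3 encodes a pseudokinase that is induced by ATF4 and CHOP and restrains them. Trib3 had a log2 signal of 1.49, 0.32, 1.27 and 0.35 in control and 0.19, 1.34, 0.15 and 0.43 in βFbln5KO islets, with a log2 fold change of −0.33 ± 0.34 (SE; limma, adjusted p = 0.652). The value went from −0.60 without βFbln5KO array 2 to −0.12 without control array 1. Chac1 encodes an enzyme that degrades glutathione. For Chac1, the log2 signal was 3.17, 2.15, 3.76 and 2.35 in control and 2.13, 3.36, 2.23 and 2.26 in βFbln5KO islets, with a log2 fold change of −0.36 ± 0.39 (SE; limma, adjusted p = 0.671). It went from −0.65 without βFbln5KO array 2 to −0.059 without control array 3.

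For each of these 3 genes, the 3 highest arrays were control 1, control 3 and βFbln5KO 2, and the other 5 arrays lay below them. Between the lowest and the highest control array, Trib3 spanned 1.17 and Chac1 spanned 1.61 log2 units, more than 3 times the size of the difference between the genotypes for either gene. The same 3 arrays were the highest for 184 of the 13552 well measured genes (1.36%), for 2 of 58 genes of the wider list (Eif2b5 and Gars), for 1 of 4 alpha cell markers (Gcg) and for 0 genes of the other marker lists, which include 8 chaperones of the unfolded protein response and 10 immediate early and heat shock genes. This order of arrays was noticed in the values, Eif2b5, Gars and Gcg were named after it was seen, and it was not tested.

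Ppp1r15a and Sesn2, which feed back on translation and growth, were measured with less spread. Ppp1r15a encodes GADD34, the regulatory subunit of the phosphatase that removes the phosphate from eIF2. Ppp1r15a had a log2 signal of 2.30, 2.40, 2.52 and 2.44 in control and 2.31, 2.35, 2.62 and 2.42 in βFbln5KO islets. The 8 arrays lay close together, which gave a log2 fold change of 0.011 ± 0.076 (SE) and an interval from −0.16 to 0.18 (limma, adjusted p = 0.958). It turned to −0.053 without βFbln5KO array 3 and to −0.026 without control array 1. Sesn2 encodes a leucine sensor that restrains mTORC1. For Sesn2, the log2 signal was 2.04, 1.82, 1.81 and 1.89 in control and 1.73, 1.91, 1.64 and 1.40 in βFbln5KO islets. Array 4 of βFbln5KO was the lowest and array 2 lay among the controls. Sesn2 had a log2 fold change of −0.22 ± 0.10 (SE) and an interval from −0.45 to 0.020 (limma, adjusted p = 0.249). It went from −0.30 without βFbln5KO array 2, where it passed an unadjusted p of 0.05 but not an adjusted one (limma, adjusted p = 0.171), to −0.13 without βFbln5KO array 4.

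The amino acid enzymes did not pass the test either. Asns encodes asparagine synthetase, a standard readout of the response. Its log2 signal was 4.34, 3.99, 4.28 and 4.03 in control and 4.23, 3.94, 3.89 and 4.22 in βFbln5KO islets, and the high and low arrays were mixed between the genotypes. This gave a log2 fold change of −0.091 ± 0.11 (SE) and an interval from −0.34 to 0.16 (limma, adjusted p = 0.710). Another Asns probe gave the opposite sign, 0.29 ± 0.20 (SE; limma, adjusted p = 0.463), with 0.68, 0.34, 0.30 and 0.08 in control and 0.83, 1.11, 0.19 and 0.42 in βFbln5KO islets, and the mean of both probes gave 0.099. Psat1 encodes the aminotransferase of serine synthesis. Psat1 had a log2 signal of 0.69, 0.26, 0.38 and 0.46 in control and 0.23, 0.22, 0.31 and 0.65 in βFbln5KO islets, with a log2 fold change of −0.096 ± 0.12 (SE; limma, adjusted p = 0.721). The value went from −0.20 without βFbln5KO array 4 to −0.015 without control array 1. Another Psat1 probe was well above background on 3 arrays only (control 1, control 4 and βFbln5KO 2), and its difference was not read. Phgdh encodes the dehydrogenase that opens serine synthesis. For Phgdh, the log2 signal was 2.23, 1.71, 2.68 and 2.43 in control and 2.12, 1.46, 2.01 and 2.21 in βFbln5KO islets. All 4 βFbln5KO arrays lay below the control mean, but above control array 2 except for βFbln5KO array 2. Phgdh had a log2 fold change of −0.31 ± 0.22 (SE) and an interval from −0.82 to 0.20 (limma, adjusted p = 0.473). It went from −0.50 without control array 2, where it passed an unadjusted p of 0.05 but not an adjusted one (limma, adjusted p = 0.152), to −0.15 without βFbln5KO array 2.

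Nupr1, a small stress-induced chromatin protein first known from the inflamed exocrine pancreas, had a log2 fold change that rested in part on 1 control array. Its log2 signal was 4.40, 3.88, 5.45 and 4.46 in control and 4.21, 3.50, 3.77 and 4.64 in βFbln5KO islets. Control array 3 stood above all others, and βFbln5KO array 4 was the next highest. Nupr1 had a log2 fold change of −0.52 ± 0.34 (SE) and an interval from −1.30 to 0.26 (limma, adjusted p = 0.429), the lowest value of the 10 genes. Without control array 3 it was −0.22, where Sesn2 was lower at −0.24, and without βFbln5KO array 2 it was −0.34, where Chac1 and Trib3 were lower. The lowest value was −0.74, without control array 2. Signal from exocrine tissue differed between the same arrays. The summed signal of 11 acinar markers, in multiples of each array's 75th percentile, was 1581, 1333, 3523 and 2892 on control arrays 1 to 4 and 1476, 861, 880 and 2231 on βFbln5KO arrays 1 to 4. Of these 11 markers, 10 were well above background on all 8 arrays, all 11 had a log2 fold change below 0 with a median of −0.91, and 1 was lower at an unadjusted p of 0.05, beside 3.04% of well measured genes. Control array 3 held the highest and βFbln5KO array 2 the lowest value of the acinar sum, of Nupr1 and of Phgdh. The part of acinar RNA in Nupr1 and Phgdh was not tested. In whole islets, fewer cells of a type and less RNA per cell cannot be told apart.

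**Figure D2:**
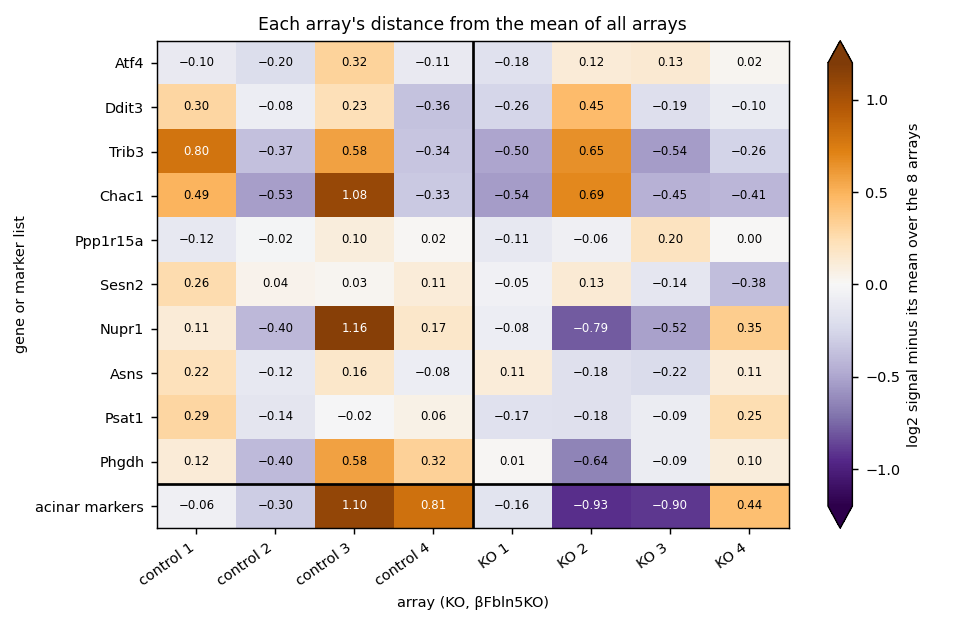
Log2 signal of each gene on each array minus its mean over the 8 arrays (colour and printed value), with control arrays left and βFbln5KO arrays right of the line. The last row is the log2 of the summed acinar marker signal, treated alike. Ddit3, Trib3 and Chac1 are highest on control 1, control 3 and KO 2, whereas Nupr1 and Phgdh are highest on control 3 and lowest on KO 2.

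The intervals set how large a difference the 8 arrays leave possible. For all 10 brightest probes, the upper bound lay below a 1.5-fold rise in βFbln5KO islets, with Chac1 as the highest at 1.45-fold. The other Asns probe, however, reached 1.68-fold, and the other Psat1 probe was too close to background to set a bound. On the lower side, the bound lay above a 1.5-fold fall for Atf4, Ddit3, Asns, Sesn2, Psat1 and Ppp1r15a, and above a 2-fold fall for these and Phgdh. Trib3, Chac1 and Nupr1 were left less well bounded, since their lower bounds reached 0.463, 0.419 and 0.405 of the control level. All these bounds come from the main fit of 8 arrays and were not computed with an array left out. With 1 array left out, the log2 fold change reached up to −0.059 for Chac1 and −0.12 for Trib3.

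Against these genes stood the 2 transporters that prompted the question. Slc38a1 rose by 5.62 on the log2 scale, from −3.18 ± 0.50 on the control arrays to 2.44 ± 0.051 on the βFbln5KO arrays (SD, n = 4 each; limma, adjusted p = 7.49e-05). Slc38a2 was at 1.92 to 2.22 on the control arrays and at 1.00 to 1.21 on the βFbln5KO arrays. These groups did not overlap, and Slc38a2 fell, with a log2 fold change of −0.98 ± 0.078 (SE) and an interval from −1.16 to −0.81 (limma, adjusted p = 0.00638). The lower bounds of 7 of the 10 genes lay above −0.98, those of Trib3, Chac1 and Nupr1 did not, and the difference between Slc38a2 and any of the 10 genes was not tested.

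**Figure D3:**
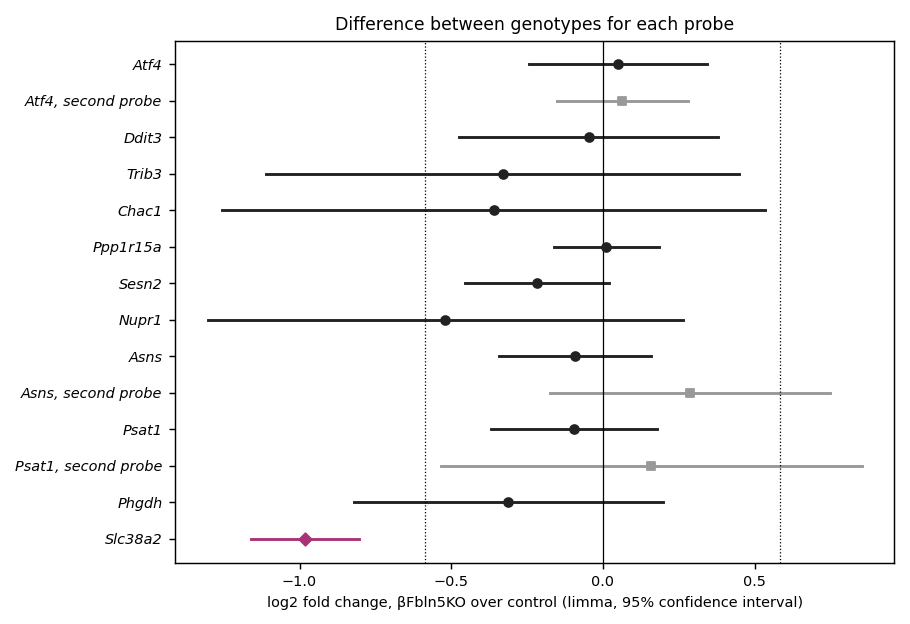
Log2 fold change of βFbln5KO over control islets with the 95% confidence interval from limma for all 13 probes (brightest probes as black circles, other probes as grey squares) and for Slc38a2 (diamond), with dotted lines at a 1.5-fold difference either way. Every interval of the 13 probes includes 0, and that of Slc38a2 lies below it. The other Psat1 probe was above background on 3 arrays only.

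The response beyond these genes was read from 58 other measured genes, in 7 classes. At an adjusted p of 0.05, 0 of the 58 were called, and 0 of the 54 that were measured clearly on every array passed an unadjusted p of 0.05. With limma, 1 of the 58 was higher at an unadjusted p of 0.05, the cystine transporter gene Slc7a11 (adjusted p = 0.0728), which was named after its value was seen. All 8 arrays read its probe as not well above background, and its fold is left out. Without βFbln5KO array 4 its adjusted p was 0.00251, in a fit that called 3755 of all genes in place of 3, and without the variance trend it was 0.0498, where 2088 were called. Its unadjusted call was lost with normexp, quantile normalization and the floor, and it had no value under the filter against dim probes or in the authors' table. These counts lie at or below the shares of all genes given above (16.8% higher and 2.68% lower, and 0.981% and 3.04% for well measured genes). The log2 fold changes were above 0 for 26 genes and below 0 for 32, with a median of −0.017. The 9 genes of the eIF2 kinases and eIF2 control, which lie upstream of ATF4, ranged from −0.092 to 0.13. The 13 genes that encode tRNA synthetases or the tRNA export factor (Xpot) ranged from −0.12 to 0.18, and 8 of them were above 0. The 8 amino acid transporters had a median of −0.14, the 6 other transcription factors 0.054, the 5 serine, glycine and one-carbon enzymes −0.021, the 5 proline, alanine, aspartate and cysteine enzymes −0.053, and the 12 translation, stress and secreted targets −0.027.

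The 3 largest log2 fold changes among the well measured genes of the wider list were all below 0 and did not pass the test. Slc6a9, a glycine transporter gene, was at −0.55 ± 0.32 (SE; limma, adjusted p = 0.363), with 1.07, 0.79, 2.24 and 1.74 in control and 0.82, 0.67, 0.63 and 1.53 in βFbln5KO islets. Its arrays came in the order of their acinar sums, except that βFbln5KO arrays 2 and 3 changed places, and the part of acinar RNA was not tested. Adm2, which encodes a secreted peptide of the adrenomedullin family, was at −0.39 (limma, adjusted p = 0.440). Slc7a5, the leucine transporter gene LAT1, was at −0.36 (limma, adjusted p = 0.248), with −2.20, −2.83, −2.31 and −2.61 in control and −2.89, −2.63, −2.85 and −3.03 in βFbln5KO islets. Except for control array 2, the control arrays lay above all βFbln5KO arrays for Slc7a5.

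**Figure D4:**
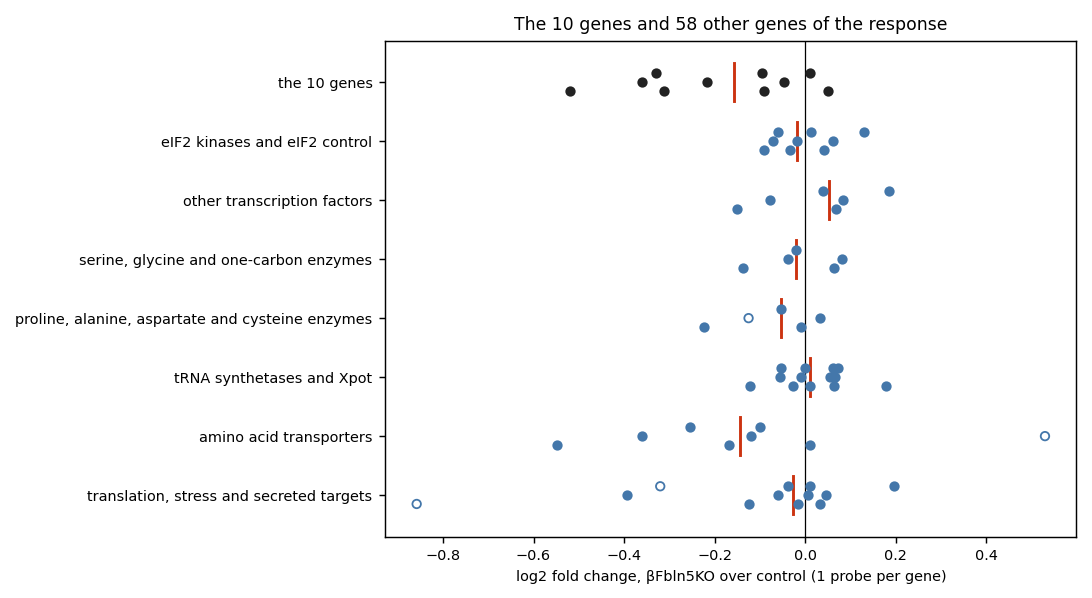
Log2 fold change of βFbln5KO over control islets (x axis) for the 10 genes (black) and 58 other genes of the response by class (blue), 1 point per gene. Filled points are genes well above background on every array, open points are not, and red lines are medians, which lie between −0.16 and 0.054.

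The genes whose signal followed that of Atf4 most closely over the 8 arrays were Dpm2 (Pearson r = 0.971), Eif3c (r = 0.969), Fnip2 (r = 0.960), Slf2 (r = 0.951) and Nup62 (r = 0.944), out of 13542 genes ranked. The other 9 genes of the response followed it less, from r = 0.664 for Chac1 and r = 0.622 for Ppp1r15a to r = −0.173 for Sesn2. These values describe 8 arrays of 2 genotypes on 1 slide, and they are the highest of a long ranking.

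The arrays themselves were checked for what could move with the genotype. Spots well above background were more frequent on the control arrays (56.6% to 58.8%) than on the βFbln5KO arrays (52.6% to 56.6%), spots marked as outliers were fewer (125 to 175 against 176 to 398), and neither overlapped. All 13 probes were free of outlier marks, and the part of these differences in the values of the 10 genes was not tested. All 8 β-cell markers were well above background on all 8 arrays, with a summed signal of 1204 to 1465 times the 75th percentile in control and 1173 to 1222 in βFbln5KO islets. Fbln5, the targeted gene, overlapped between the groups, with log2 signals of −2.05 to −1.32 on the control arrays, −2.74 to −1.37 on the βFbln5KO arrays and a log2 fold change of −0.50 (limma, adjusted p = 0.342). The overlap came from the array labelled βFbln5KO 4, which lay above 3 of the 4 controls, whereas the other 3 lay below all controls. Without it the log2 fold change of Fbln5 was −0.78 (limma, adjusted p = 0.0227). This fit called 3755 of all genes in place of 3. In it, 0 of the 10 genes of the response passed an adjusted or unadjusted p of 0.05. With any other array left out, the adjusted p of Fbln5 in limma was 0.301 to 0.596. Where its 1 probe lies relative to the deleted part was not looked up. Of 10 immediate early and heat shock genes, which respond to islet isolation, 4 were higher in βFbln5KO islets at an unadjusted p of 0.05 in limma (Fos, Fosb, Hspa1a and Hspa1b, named after their values were seen) and 0 at an adjusted p of 0.05, with a median of 0.14. For 3 of the 10 the groups did not overlap, with βFbln5KO above. Among all well measured genes these shares were 0.981% and 0.686%. The 8 chaperones of the other branches of the unfolded protein response had a median of 0.066, and 0 passed an unadjusted or adjusted p of 0.05. The part of the immediate early response in the values of the 10 genes was not tested.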

How the data were processed

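Islet RNA was labelled with Cy3 and hybridised to 8 Agilent mouse arrays on 1 slide, 4 for floxed control and 4 for βFbln5KO mice. Per the file headers and the study's methods, the authors' Feature Extraction 11.0.1.1 gave each spot a processed signal, an intensity that was background-subtracted and spatially detrended but not yet normalized between the arrays. A deposited table of the authors, with 35553 probes, holds values that are a signal scaled per array. Each was checked to be the processed signal over 1 number per array, within 0.01%, with 75.0% of probes below that number.

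The log2 processed signals of 59305 non-control spots were shifted by each array's 75th percentile (709 to 1012 in control, 910 to 1055 in βFbln5KO). No spot was saturated, and values marked as outliers (0.356%) were left out. Replicate spots were averaged, which left 56605 probes. Through RefSeq accessions 32994 probes were named for 22911 genes, and 23611 were not named. The number of arrays limits the precision. Genotypes were compared with limma 3.58.1 (lmFit, eBayes with trend) in R 4.3.3, and p-values were adjusted by Benjamini-Hochberg over all probes. The brightest probe stood for a gene. The fit was tested on simulated data, with independent noise for each array, as a check of the code and not of these results. Other tools were the R package data.table (1.17.8), Python 3.11.15 and, for the plots, matplotlib 3.10.9.

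The 10 genes, the wider list of 59 genes (58 were measured, Pycr1 was not matched), and the marker lists for isolation stress, chaperones and the cells of islets and exocrine pancreas were chosen with earlier results of these data known. Other named genes followed a rule: wider genes past an unadjusted p of 0.05 and well above background on all arrays, the 3 with the largest change, the 2 transporters, Fbln5, and the 5 genes closest to Atf4 by Pearson r. Genes outside it are marked. The marker lists not described in the report (alpha, PP, delta, ductal, endothelial, mesenchymal and macrophage) had 0 genes past an unadjusted p of 0.05 in limma, and 0 past an adjusted one. The 20 alternatives were other background corrections, scalings, filters, variance models and tests, the authors' table, a block for the replicate number, the edge rows left out, and each array left out.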

Additional observations from a re-analysis of the deposited data

Results flagged for a closer look

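Chac1 on βFbln5KO array 2 stood apart from its group, with a log2 signal of 3.36 against 2.13 to 2.26 on the other 3 βFbln5KO arrays. The gap was 0.895 of the group's whole range. Trib3 and Ddit3 were also highest in their group on this array, and control arrays 1 and 3 were at 3.17 and 3.76 for Chac1. It was the 1 flag in 24 groups of 4 arrays, over 12 genes, and chance flags about 1 in 20 groups.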

How the results depend on the processing

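Under all 20 alternatives, 0 of the 10 genes passed an adjusted p of 0.05 (smallest 0.152, Phgdh without control array 2), and 0 were higher at an unadjusted p of 0.05. Phgdh was lower at an unadjusted p of 0.05 with the replicate block (1 gene). The deviations of same-numbered arrays had r from −0.22 to 0.30, which cannot decide whether the numbers pair the arrays. With each array left out in turn, 0 to 1 of the 10 genes were lower at that p (Phgdh without control array 2, Sesn2 without βFbln5KO array 2), and their median log2 fold change ranged from −0.20 to −0.076 (without control array 1). It was −0.088 without control array 3. Of the wider list, 1 to 2 genes were then higher, 0 to 3 were lower at the unadjusted p, with 3 lower without control array 2. The higher count was 0, not 1, with the deposited table, quantile normalization, a floor under dim signals or a filter against dim probes, and the lower count was 1 with normexp. The 1 higher gene was Slc7a11, but with normexp it was Aars, named after its value was seen. The sign reversed for Asns to 0.099 with the mean of a gene's probes. It also reversed for Ddit3, to 0.044 without control array 1, 0.023 without control array 3, 0.033 without βFbln5KO array 1 and 0.0084 without βFbln5KO array 3, for Ppp1r15a, to −0.026 without control array 1 and −0.053 without βFbln5KO array 3, and for Atf4, to −0.0087 without control array 2. Over all arrays left out in turn, the values spanned −0.21 to 0.044 (Ddit3), −0.053 to 0.050 (Ppp1r15a), −0.0087 to 0.16 (Atf4), −0.60 to −0.12 (Trib3), −0.65 to −0.059 (Chac1), −0.74 to −0.22 (Nupr1), −0.50 to −0.15 (Phgdh), −0.30 to −0.13 (Sesn2), −0.20 to −0.015 (Psat1) and −0.15 to −0.032 (Asns). Over all genes, adjusted calls were 3, but 3755 without βFbln5KO array 4, 2088 without the variance trend, 35 with the methods' t-test, and 1 to 5 under the others. Unadjusted calls split into 3845 higher and 615 lower, but 170 and 878 with normexp, 441 and 650 with quantile normalization, 128 and 525 with the filter, 199 and 482 with the floor, and 231 and 535 with the deposited table. The cause was not tested.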
